A study of Mus musculus with 13 samples.

Results

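A group of 10 genes that mark cells of Mullerian or mesothelial lineage, or that are used as markers of ovarian cancer, were followed in bulk RNA-seq of mouse ovaries and ovarian tumors. They are Muc16, Msln, Upk3b, Pax8, Pax2, Wt1, Emx2, Lhx9, Gata4 and Nr2f2, chosen by gene symbol, and all 10 were present among the 53465 genes of the deposited table. Ovaries of WT C57BL/6 mice gave 3 of the libraries and were labelled non-treated (WT ovary). The other 10 libraries came from Myc;p53-/- ovarian EPO-GEMM tumors (MP tumor), also labelled non-treated. EPO-GEMM stands for an electroporation-based genetically engineered mouse model: in female WT C57BL/6 mice 8 to 12 wk of age, the left ovary was injected with a plasmid mix and electroporated, with a vector carrying Cas9 and an sgRNA against Trp53 and a Sleeping Beauty transposon vector carrying MYC. No Cre driver or lineage-restricted promoter set which cells of the ovary or oviduct took up the plasmids, the tumors were taken whole at end point, and the labels of the WT ovaries repeat this protocol and give no age at collection. Library names carry a sequencing core project number, which is called a batch here. All 3 WT ovaries and MP tumors 1 to 3 belonged to batch 1, MP tumors 4 to 6 to batch 2, and MP tumors 7 to 10 to batch 3.

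The Mullerian duct gives rise to the oviduct, uterus and upper vagina, and it forms from the coelomic epithelium, the sheet that also gives the mesothelium of the body cavity and the surface epithelium of the ovary. Mucin 16, the protein that carries the CA125 epitope, and mesothelin bind each other on the surface of mesothelial and ovarian cancer cells. The paired box factors PAX8 and PAX2 mark Mullerian duct epithelium and kidney, and PAX8 and WT1 are stained together in pathology to identify serous carcinoma. WT1, EMX2, LHX9 and GATA4 are needed in the gonadal ridge for the gonad to form, and NR2F2 (COUP-TFII) marks mesenchyme of the reproductive tract and steroidogenic stroma.

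Reads per library, worked back from the table, ranged from 31445004 to 64013840 in WT ovaries and from 3892690 to 19906507 in MP tumors. Levels are given in TPM, transcripts relative to a fixed total per library and corrected for gene length. For a gene of 1 kb, 1 read stood for 0.0513 to 0.109 TPM in WT ovaries and 0.114 to 0.790 TPM in MP tumors. MP tumor 2 stood apart because its 10 largest genes held 55.1% of all TPM and its mitochondrial genes 15.4%. Trp53, the gene targeted by the sgRNA, was at 80.7 to 85.4 TPM in WT ovaries and at 4.30 to 26.0 TPM in MP tumors 1 to 9, whereas the library labelled MP tumor 10 had 187 TPM. The RNA level alone does not show whether the edit is present. Marker lists for granulosa, theca and luteal cells and oocytes were lower in summed TPM in every MP tumor than in any WT ovary, with granulosa sums of 3790 to 6798 TPM in WT ovaries and 32.0 to 2176 TPM in MP tumors. Inha gave most of the granulosa sum in WT ovaries, and single genes did not all follow the sums: Amhr2 lay above every WT ovary in MP tumors 4, 5 and 10 (648, 751 and 373 TPM), Hsd17b1 lay within their range in MP tumor 7, and Cyp17a1 and Insl3 of the theca and luteal list overlapped between the groups. In bulk tissue, fewer cells of a type and less RNA per cell cannot be told apart.

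Upk3b, Pax8 and Muc16 each had their highest tumor level in MP tumor 9, and the bases before their start sites are shown for that reason. Emx2 was highest there too, but its window lies inside an annotated untranslated stretch and is not printed. Msln was also highest there, but no RefSeq window was matched for it. Each line gives the 250 bases before the RefSeq start of the gene (GRCm38.p6), 5′ to 3′ on the strand of the gene, and capitals mark a match to the GC box letters GGGCGG on either strand. The Upk3b stretch is chr5:136038246-136038495 on the plus strand, the Pax8 stretch chr2:24475600-24475849 on the minus strand, and the Muc16 stretch chr9:18674604-18674853 on the minus strand.
Upk3b: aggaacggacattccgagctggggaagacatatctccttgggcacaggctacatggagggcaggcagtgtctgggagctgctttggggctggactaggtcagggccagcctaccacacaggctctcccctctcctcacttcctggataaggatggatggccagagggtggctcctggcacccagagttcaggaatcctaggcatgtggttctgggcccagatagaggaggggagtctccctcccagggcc
Pax8: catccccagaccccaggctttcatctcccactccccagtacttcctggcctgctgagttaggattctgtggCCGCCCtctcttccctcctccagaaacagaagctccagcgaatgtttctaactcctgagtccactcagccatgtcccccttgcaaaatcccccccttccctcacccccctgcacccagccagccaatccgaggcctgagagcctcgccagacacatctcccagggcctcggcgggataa
Muc16: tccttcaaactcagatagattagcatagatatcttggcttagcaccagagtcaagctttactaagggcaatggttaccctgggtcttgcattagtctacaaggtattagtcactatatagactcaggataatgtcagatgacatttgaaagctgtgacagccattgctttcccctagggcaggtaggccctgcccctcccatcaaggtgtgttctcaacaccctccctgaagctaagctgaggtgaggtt
RefSeq windows of 300 bases, which add the 50 bases after the start, were matched for 7 of the 10 members, in 9 windows. Each of 4 short motifs was searched on both strands. The E-box to which MYC binds, CACGTG, was in 0 of the 9 windows, against 7.15% of 32851 windows of all genes. The GC box letters were in 4 of 9, against 35.7% of all windows, and those in Pax8 began at base 72 of the window. The letters of a GATA site, AGATAA, were in 0 of 9, against 11.2% of all windows. The homeobox core TAATTA was in 1 of 9, that of Emx2, against 5.29% of all windows. These matches are descriptions of the letters in short windows.

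WT ovaries gave a tight order of member levels per length, in which Gata4 was highest in each of the 3 libraries, at 200 to 235 TPM. Upk3b, Nr2f2, Wt1 and Msln came next, at 43.7 to 71.4 TPM, and of these Nr2f2 overlapped in range with each of the other 3. Emx2 followed at 26.9 to 36.7 TPM, then Lhx9 at 7.21 to 8.01 TPM and Muc16 at 2.96 to 3.17 TPM, with no overlap between these steps. Pax8 and Pax2 were near the limit of detection, at 0.0254 to 0.133 and 0.0401 to 0.112 TPM, and were not separated from each other. In the MP tumors, Gata4 was the highest member in 7 of 10, with Emx2 first in MP tumor 2, Nr2f2 first in MP tumor 3 and Upk3b first in MP tumor 9.

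**Figure D1:**
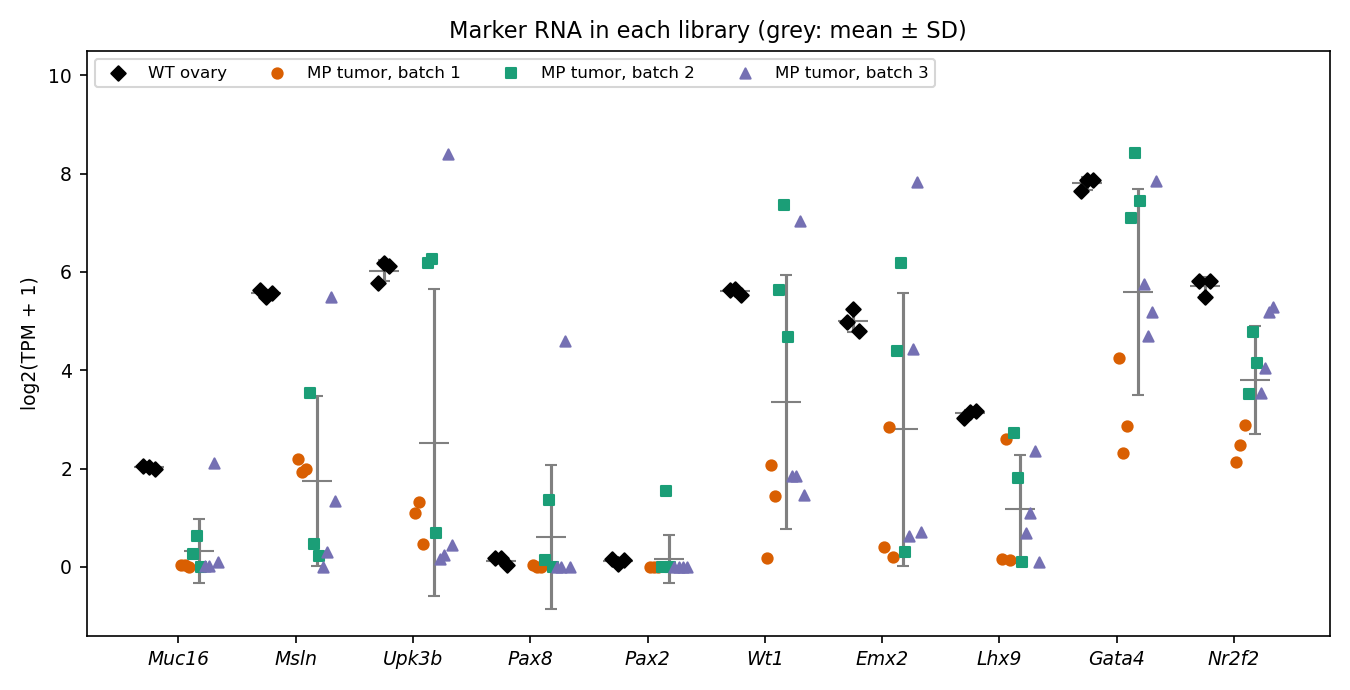
Level of each member as log2(TPM + 1) in each library, with WT ovaries as black diamonds and MP tumors colored by batch, and the mean ± SD of each group in grey. The 3 WT ovaries lie close together for every member, whereas Upk3b, Wt1, Emx2 and Gata4 are spread over several log2 units among the 10 MP tumors.

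Muc16, Msln, Lhx9 and Nr2f2 were lower in MP tumors than in WT ovaries when all 13 libraries were compared. The test was limma on log2(TPM + 1) over the 17277 genes with at least 1 TPM in at least 3 libraries, and 8 of the 10 members were among them. At an adjusted P value under 0.05, 4 of these 8 members were lower and 0 were higher, where 14.3% of all genes tested were lower. Muc16 is 1 of the 4 and passed the filter on low values through the ovaries, so the count is given as a description. The median log2 fold change over all genes tested was -0.58, and member values stand on top of this shift. Fold changes on this scale understate the change of genes with low TPM. Without MP tumors 2 and 10, the library with a few dominant genes and that with high Trp53, the same 4 members were lower, with limma adjusted P values of 0.0166 for Muc16, 0.0229 for Msln, 0.0331 for Lhx9 and 0.0299 for Nr2f2. Coordinates of genes are those of the table (GRCm38). Labels do not say that libraries are from separate animals, so P values measure the spread between these samples.

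Muc16 (ENSMUSG00000109564, chromosome 9 from 18495455 to 18674530, minus strand, 26350 bases of merged exons) encodes the large mucin that carries CA125. It was at 3.17, 3.07 and 2.96 TPM in WT ovaries 1, 2 and 3. In MP tumors its lowest value was 0, the median 0.0208 and the highest 3.30 TPM. In 9 MP tumors it lay below every WT ovary, at no more than 0.540 TPM, and in MP tumor 9 above all 3 by value, with an exact Poisson 95% interval of 2.89 to 3.75 TPM (231 reads, counting error only) that covers the 3 ovaries. The decrease of Muc16 passed the test (limma adjusted P = 0.00725), with -1.70 ± 0.38 (SE) as log2 fold change. Only 4 libraries reached 1 TPM, the 3 WT ovaries and MP tumor 9, so Muc16 entered the test through the group in which it was high.

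Msln (ENSMUSG00000063011, chromosome 17 from 25748614 to 25754327, minus strand) encodes mesothelin, the binding partner of mucin 16. It was at 48.7, 43.7 and 46.5 TPM in WT ovaries. In MP tumors it ran from 0 to 43.8 TPM with a median of 2.17 TPM. MP tumor 9, at 43.8 TPM, was the only tumor within the WT range, and the next highest was MP tumor 4 at 10.6 TPM. The decrease of Msln passed the test (limma adjusted P = 0.0114), with -3.82 ± 0.93 (SE) as log2 fold change. Under 0.1 of the WT mean were 8 MP tumors for Msln and 8 for Muc16.

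Upk3b (ENSMUSG00000042985, chromosome 5 from 136038496 to 136046487, plus strand) encodes uroplakin 3B, a membrane protein of mesothelium and urothelium. It was at 53.9, 71.4 and 68.5 TPM in WT ovaries. MP tumors had either a level as high as the ovary or hardly any: 335 TPM in MP tumor 9, 75.9 in MP tumor 5 and 71.6 in MP tumor 4, against 0.117 to 1.48 TPM in the other 7. By value 3 MP tumors lay above the WT range and 7 below, but the exact Poisson 95% intervals of MP tumor 4 (65.0 to 78.6 TPM) and MP tumor 5 (68.0 to 84.4 TPM) cover the highest ovary. MP tumor 9 had 5.18 times the WT mean. The log2 fold change of -3.50 (standard error 1.62) did not pass the test (limma adjusted P = 0.145), and passed it without MP tumor 9 (log2 fold change -4.15, limma adjusted P = 0.0347). With batch as a covariate, where batch 1 alone sets the contrast, it was -5.07 and passed (limma adjusted P = 0.0334). Among tumors, the SD of log2(TPM + 1) for Upk3b was 3.13, at the 99.9th percentile of all genes tested, whose median was 0.861.

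Pax8 (ENSMUSG00000026976, chromosome 2 from 24420560 to 24475599, minus strand) encodes a paired box factor, and its RNA was above the ovaries in MP tumors 9 and 5. WT ovaries had 0.133, 0.125 and 0.0254 TPM, from 12, 7 and 3 reads. MP tumor 9 had 23.2 TPM from 373 reads, with an exact Poisson 95% interval of 20.9 to 25.6 TPM for counting error only. MP tumor 5 had 1.57 TPM from 12 reads (0.809 to 2.73 TPM by the same interval). MP tumors 1 and 4 had 1 read each and the other 6 had 0 reads, which allows 0.0565 to 0.318 TPM at 3 reads per library, so a level like the WT mean of 0.0947 TPM was detectable in MP tumors 2, 3 and 8 and not in MP tumors 6, 7 and 10. Pax8 was under the filter of the main test. The difference of mean log2(TPM + 1) was 0.48, with P = 0.804 in a 2-sided exact permutation test of the library labels, whose smallest possible P is 0.00350.

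Pax2 (ENSMUSG00000004231, chromosome 19 from 44756045 to 44837871, plus strand) was at 0.112, 0.0401 and 0.104 TPM in WT ovaries. It was at 0 reads in 9 MP tumors and at 1.90 TPM from 13 reads in MP tumor 5 (exact Poisson 95% interval 1.01 to 3.25 TPM). MP tumor 5 therefore had reads of both paired box factors, and MP tumor 9 of Pax8 alone, where 0 reads of Pax2 allow up to 0.257 TPM by the same interval. The difference between groups was 0.04 on the log2(TPM + 1) scale (exact permutation P = 1, 2-sided).

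Wt1 (ENSMUSG00000016458, chromosome 2 from 105126529 to 105173616, plus strand) encodes a zinc finger factor of the gonadal ridge, kidney and mesothelium. WT ovaries had 48.9, 49.6 and 45.5 TPM. MP tumors ran from 0.135 to 163 TPM with a median of 2.92 TPM. MP tumor 5 (163 TPM) and MP tumor 9 (130 TPM) lay above the ovaries, MP tumor 4 (48.5 TPM) lay within their range, and the other 7 lay below it. Of these 7, MP tumor 6 had 24.5 TPM and the rest 0.135 to 3.22 TPM. Its log2 fold change of -2.26 (standard error 1.34) did not pass the test (limma adjusted P = 0.248). With batch as a covariate it was -4.38 and passed (limma adjusted P = 0.00620).

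Emx2 (ENSMUSG00000043969, chromosome 19 from 59458372 to 59465357, plus strand) encodes a homeobox factor without which the urogenital tract does not form. It was at 30.6, 36.7 and 26.9 TPM in WT ovaries. In MP tumors it ran from 0.152 to 228 TPM with a median of 3.44 TPM. MP tumor 9 (228 TPM, 7.25 times the WT mean) and MP tumor 5 (71.4 TPM) lay above the ovaries. MP tumors 4 and 8 lay below the ovaries, at 0.638 and 0.654 of the WT mean, and the other 6 had 0.152 to 6.23 TPM. For Emx2 the log2 fold change was -2.21 (standard error 1.45, limma adjusted P = 0.291), which did not pass the test, nor did the value of -3.85 with batch as a covariate (limma adjusted P = 0.0696). The antisense gene Emx2os shares 264 exonic bases with Emx2. Its TPM was 12.2% to 15.9% of that of Emx2 in WT ovaries and 11.3% to 20.5% in the 5 MP tumors with at least 5 TPM of Emx2. Use of strand in the counting is not stated, so reads of the 2 genes in the shared bases cannot be told apart.

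Lhx9 (ENSMUSG00000019230, chromosome 1 from 138825186 to 138848577, minus strand) encodes a LIM homeobox factor of the early gonad and ovarian surface. It was at 7.21, 7.92 and 8.01 TPM in WT ovaries. MP tumors ran from 0.0677 to 5.61 TPM with a median of 0.872 TPM, so by TPM every tumor lay below every ovary. By percentile among the genes detected in each library, MP tumor 2 lay above every ovary (68.1 against 55.1 to 59.1). The highest were MP tumor 4 (5.61 TPM), MP tumor 2 (5.10 TPM) and MP tumor 9 (4.12 TPM). Lhx9 passed the test with a log2 fold change of -1.94 ± 0.62 (SE; limma adjusted P = 0.0443). With median-of-ratios scaling, which put the median over all genes at -0.02, it was -1.37 and did not pass the test (limma adjusted P = 0.204).

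Gata4 (ENSMUSG00000021944, chromosome 14 from 63198922 to 63271692, minus strand) encodes a zinc finger factor of granulosa and theca cells. It was at 200, 233 and 235 TPM in WT ovaries. MP tumors ran from 4.01 to 344 TPM with a median of 44.4 TPM. MP tumor 5 lay above the ovaries (344 TPM) and MP tumor 10 within their range (230 TPM), while the other 8 lay below, from 4.01 TPM in MP tumor 2 to 172 TPM in MP tumor 6. For Gata4 the log2 fold change of -2.21 (standard error 1.09) did not pass the test (limma adjusted P = 0.170). With batch as a covariate it was -4.65 and passed (limma adjusted P = 0.000137). MP tumor 9, highest for Muc16, Msln, Upk3b, Pax8 and Emx2, had 35.5 TPM of Gata4. Granulosa markers, among which Gata4 is not listed, also had a low sum in MP tumor 9, at 187 TPM.

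Nr2f2 (ENSMUSG00000030551, chromosome 7 from 70351944 to 70366735, minus strand) was at 55.0, 44.0 and 55.6 TPM in WT ovaries. MP tumors ran from 3.39 to 38.2 TPM with a median of 13.1 TPM, and every tumor lay below every ovary. The 3 lowest were MP tumors 1, 2 and 3, at 3.39, 4.55 and 6.35 TPM. For Nr2f2 the log2 fold change was -1.91 (standard error 0.63, limma adjusted P = 0.0491), just under the threshold, and -3.21 with batch as a covariate (limma adjusted P = 0.000145). B130024G19Rik, transcribed from the other strand, shares 643 exonic bases with Nr2f2 and was at 4.18% to 5.20% of its TPM in WT ovaries and 0.568% to 5.01% in the 8 MP tumors with at least 5 TPM of Nr2f2.

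By TPM, Nr2f2 and Lhx9 were the 2 members of 10 without overlap, every MP tumor lying below every WT ovary, where 16.4% of all genes tested had no overlap in that direction. By percentile among the genes detected in each library, Lhx9 overlapped, while Nr2f2, Muc16 and Msln had every MP tumor below every WT ovary. The share of all genes on that scale was not counted. Leaving out any 1 of the 3 WT ovaries moved the log2 fold changes little (-1.69 to -1.72 for Muc16 and -3.78 to -3.86 for Msln) but left 0 of 8 members past the threshold, with limma adjusted P values of 0.0540 to 0.0596 for Muc16, 0.0620 to 0.0700 for Msln, 0.156 to 0.170 for Lhx9 and 0.148 to 0.191 for Nr2f2. The number of lower genes over the whole table fell with it, from 2463 to between 604 and 683. Leaving out 1 MP tumor at a time, Msln passed the threshold in 10 of 10 fits. Lhx9 lost its call without MP tumor 1, 3, 6, 7, 8 or 10 (limma adjusted P up to 0.0657), and Nr2f2 without MP tumor 1, 2, 3, 4, 6, 7 or 8 (up to 0.0716).

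**Figure D2:**
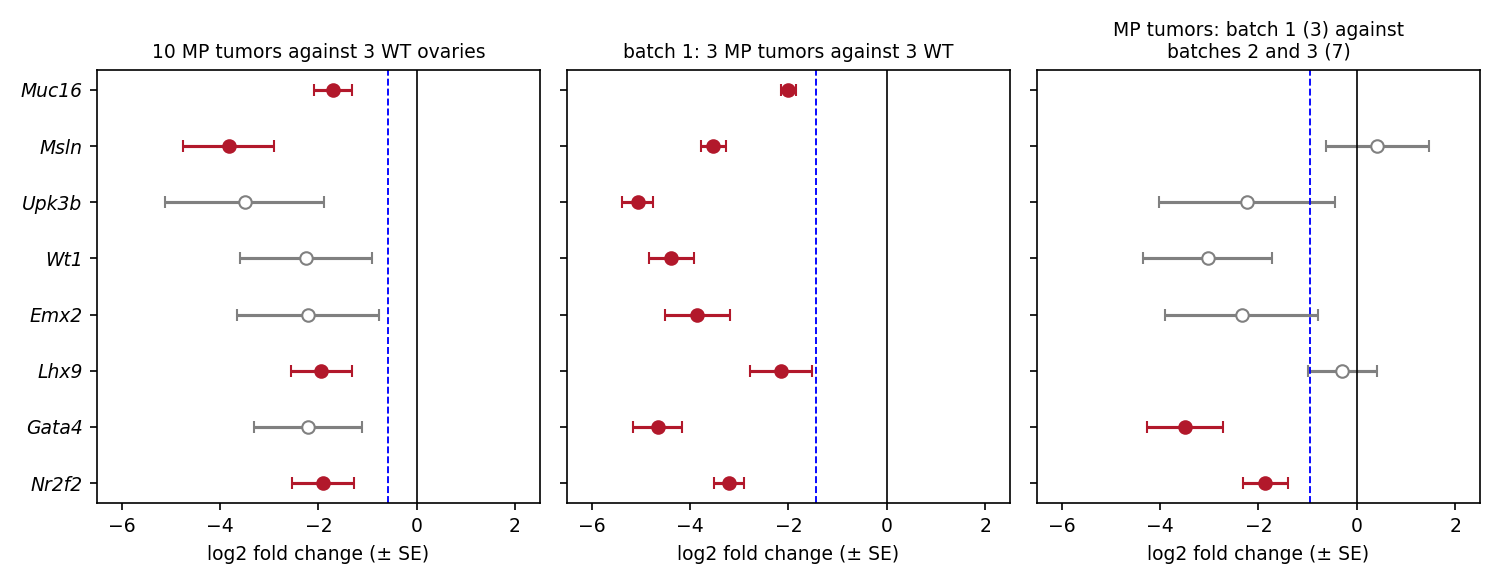
Log2 fold change of each tested member with its standard error in the 3 comparisons, filled red where the limma adjusted P value is under 0.05 and open grey where it is not. Dashed blue lines mark the median over all genes tested, at -0.58, -1.44 and -0.95 from left to right.

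Tumor by tumor, the 8 members in the test divided the MP tumors unevenly. All 8 lay below every WT ovary in MP tumors 1, 2, 3, 6, 7 and 8, in which 55.9% to 80.9% of all genes tested did so too. MP tumor 10 had 7 of the 8 below, beside 45.3% of all genes, the exception being Gata4 within the WT range. MP tumor 4 had 6 below, beside 62.2% of all genes, with Upk3b above the ovaries by value and Wt1 within their range. MP tumor 5 had Upk3b, Wt1, Emx2 and Gata4 above by value and Muc16, Msln, Lhx9 and Nr2f2 below, where 37.6% of all genes were above and 45.6% below. MP tumor 9 had Muc16, Upk3b, Wt1 and Emx2 above by value, Msln within and Lhx9, Gata4 and Nr2f2 below, where 43.9% of all genes were above and 42.4% below.

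Marker lists of other cells moved with this division in part. Summed TPM of 5 stromal markers was 948 to 1651 TPM in WT ovaries, and among MP tumors it was highest in MP tumor 9 (3369 TPM) and MP tumor 5 (1565 TPM), with 32.0 to 421 TPM in the other 8. In MP tumor 5 the sum came mainly from Col1a1 (949 TPM) and Col1a2 (376 TPM), while Pdgfra, Dcn and Lum lay below every WT ovary, as did Pdgfra in MP tumor 9 (56.9 TPM). Of the 5, 2 were lower in MP tumors and 0 higher by limma. Over all 17277 genes tested, 14.3% were lower and 433 were higher, and the calls of each list below stand beside these values. Summed TPM of 6 simple epithelial markers was 237 to 267 TPM in WT ovaries, above that range in MP tumor 4 (1152 TPM) and MP tumor 9 (464 TPM), and 173 TPM in MP tumor 5. In MP tumor 9 the sum came mainly from Krt18 (264 TPM) and Krt19 (151 TPM), while Krt7, Krt8, Epcam and Cdh1 lay below every WT ovary. In MP tumor 4 Krt7, Epcam and Cdh1 lay below every WT ovary. The sum was 5.67 to 9.63 TPM in MP tumors 3, 6, 7 and 10, and Krt19 was at 0 in MP tumors 6, 7 and 10. Of the 6, 3 were lower and 0 higher, and 1 of the 3, Cdh1, passed the filter through the ovaries. The 5 endothelial markers summed to 269 to 283 TPM in WT ovaries and to 189 TPM in MP tumor 5 and 153 TPM in MP tumor 9, the highest 2 among MP tumors, and 3 of the 5 were lower. The 4 markers of oviduct ciliated cells summed to 10.3 to 13.3 TPM in WT ovaries, and MP tumor 5 (30.5 TPM) and MP tumor 9 (21.7 TPM) lay above that range. Rsph1 alone gave 29.2 and 18.8 TPM of these sums. The ciliary factor Foxj1 was low in every library, at 0.180 to 0.254 TPM in WT ovaries. It was at 0.301 TPM in MP tumor 5, 0.717 in MP tumor 9 and 0.437 in MP tumor 4, and at no more than 0.0686 TPM in the others. The 5 immune markers summed to 470 to 3664 TPM in MP tumors and to 970 to 3149 TPM in WT ovaries, most of it Lyz2. Skeletal muscle markers, of which 1 of 4 was higher in MP tumors, summed to 7.72 to 9.52 TPM in WT ovaries. Among MP tumors their sum was 6.37 TPM in MP tumor 9, 8.98 in MP tumor 2, 13.4 in MP tumor 5 and 34.3 in MP tumor 4, and 62.0 to 1749 TPM in the other 6, with the highest in MP tumor 1. In MP tumors 3, 6, 7 and 10 most of the sum was Ckm (42.8, 89.7, 320 and 73.5 TPM), with Acta1 at no more than 1.26 TPM and Tnnt3 at no more than 2.03 TPM. The 4 smooth muscle markers, 3 of them lower, summed to 1312 to 1535 TPM in WT ovaries, 1252 TPM in MP tumor 5 and 51.9 to 348 TPM in the other MP tumors. Acta2 alone gave 1186 TPM of the sum in MP tumor 5, where Myh11 was at 6.79 TPM against 118 to 168 TPM in WT ovaries. The part of these lists in the member levels was not tested.

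**Figure D3:**
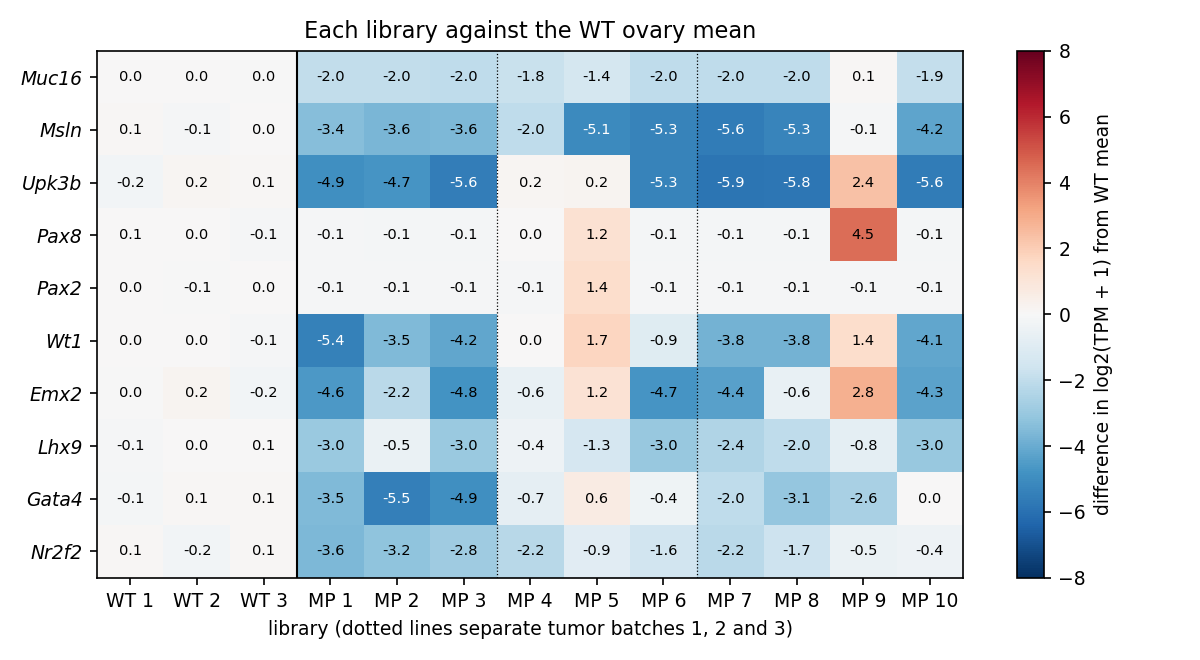
Difference of each library from the WT ovary mean in log2(TPM + 1), with members as rows and libraries as columns, and dotted lines between batches. MP tumors 5 and 9 carry most of the positive (red) cells, and MP tumors 1 to 3 are negative or near 0 in every row.

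Within batch 1, where ovaries and tumors share a project number, each of the 8 members in the test was lower in MP tumors 1 to 3 than in WT ovaries, where 62.4% of the 15239 genes tested were lower. Msln, Gata4 and Nr2f2 had at least 1 TPM in all 3 tumors. Muc16, Upk3b, Wt1, Emx2 and Lhx9 did not, and entered the test through the ovaries, where they were high, so the count of 8 is a description. The median log2 fold change over all genes was -1.44, and that of Upk3b was -5.07. Muc16, from a low level in the ovaries, was at 0.00433 to 0.0211 TPM in the 3 tumors, from 1 to 4 reads each, or 0.00141 to 0.00688 of the WT mean. Its log2 fold change is held down by the pseudocount and does not rank with the others. Gata4 had a log2 fold change of -4.65, Wt1 of -4.38, Emx2 of -3.85 and Msln of -3.53. Nr2f2 was at -3.21 and Lhx9 at -2.15, the latter from 0.117, 5.10 and 0.108 TPM in MP tumors 1, 2 and 3. By TPM, all 10 members had no overlap in this batch, where 66% of genes tested had none in that direction. For Pax8 and Pax2 the 0 to 1 reads of the tumors allow levels within the range of the ovaries. With median-of-ratios scaling, which moved the median over all genes to -0.26, Lhx9 did not pass the test (log2 fold change -1.05, limma adjusted P = 0.357). Batches 2 and 3 held no WT ovary, so for MP tumors 4 to 10 the batch and the group cannot be told apart.

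Between batches of MP tumors, 2 of the 7 members tested differed, no larger a share than the 33.6% of all 15833 genes that were lower. Gata4 was lower in batch 1 (4.01 to 18.1 TPM) than in the 7 other tumors (25.1 to 344 TPM), with a log2 difference of -3.49 (standard error 0.77, limma adjusted P = 0.00432). Nr2f2 was lower in batch 1 (3.39 to 6.35 TPM) than in the others (10.4 to 38.2 TPM), with a log2 difference of -1.86 (standard error 0.46, limma adjusted P = 0.00689). The median over all genes in this comparison was -0.95. These 2 of 10 members also had no overlap between the batches, against 30.8% of genes tested. With quantile normalization, 0 of the 7 members passed the test, and with median-of-ratios scaling Gata4 alone did (log2 difference -2.28, limma adjusted P = 0.0377). Upk3b, Wt1, Emx2, Lhx9 and Msln did not pass it in any of these settings or without any 1 tumor of batch 1.

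Other genes of the same tissues were read from the fit across all genes, in lists made from general knowledge. Of 13 genes of mesothelium and ovarian surface epithelium, 12 were tested, 2 were lower and 0 higher, a share near the 14.3% of all genes, and the median log2 fold change was -1.79 beside -0.58 over all genes. The lower ones were Upk1b, another uroplakin (log2 fold change -4.43, limma adjusted P = 0.00782), and the keratin Krt7 (-2.37, limma adjusted P = 0.0413). Upk1b was at 54.7 to 72.6 TPM in WT ovaries and reached 29.6 TPM in MP tumor 9 and 28.8 TPM in MP tumor 4. Krt19 ran from 0 to 205 TPM and the mesothelial leucine-rich repeat gene Lrrn4 from 0.276 to 162 TPM in MP tumors, and neither passed the test. In MP tumor 9, 9 of the 12 lay above the WT range, where 43.9% of all genes tested did. MP tumor 4 had 8 above, beside 25% of all genes. MP tumor 5 had 5 above and 5 below, near the 37.6% and 45.6% of all genes. In MP tumors 2, 3 and 7 the number above was 0, beside 11.6%, 20.6% and 26.7% of all genes.

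**Figure D4:**
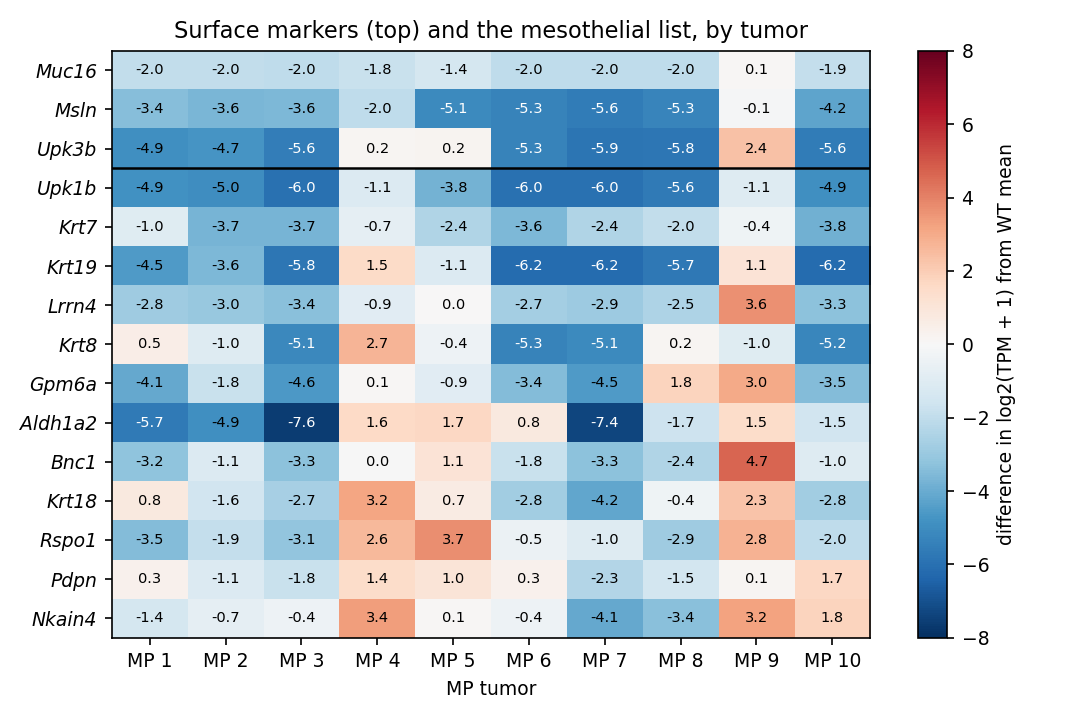
Difference of each MP tumor from the WT ovary mean in log2(TPM + 1) for the 3 surface markers (above the line) and the 12 tested genes of the mesothelial list (below it). MP tumors 4, 5 and 9 hold most of the positive (red) cells, and MP tumors 2, 3 and 7 hold none above 0.

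Of 17 Mullerian duct genes, 9 were tested, 3 were lower and 0 higher, with a median log2 fold change of -1.54, where 14.3% of all genes were lower and the median was -0.58. The lower ones were the epithelial adhesion genes Cdh1 (log2 fold change -2.91, limma adjusted P = 0.00130) and Epcam (-3.58, limma adjusted P = 0.00287) and the transcription factor Sox17 (-1.82, limma adjusted P = 0.0178). Among tumors, Cdh1 reached 1 TPM only in MP tumor 1 (7.15 TPM) and MP tumor 4 (1.38 TPM). It passed the filter through the ovaries, where it was high, so the count of 3 is a description. Epcam was at 35.3 to 48.6 TPM in WT ovaries and at 0.348 to 15.7 TPM in MP tumors, with no overlap, a pattern shared by 16.4% of all genes. Folr1, the folate receptor, was at 111 to 139 TPM in WT ovaries and at 3.67 to 321 TPM in MP tumors (log2 fold change -1.54, limma adjusted P = 0.255). Of 16 factors of the urogenital ridge and gonad, 12 were tested, 4 were lower and 0 higher, with a median of -1.64 beside the same values for all genes. These were Tcf21 (log2 fold change -4.95, limma adjusted P = 0.000979), Gata2 (-1.71, limma adjusted P = 0.00591), Wnt4 (-5.65, limma adjusted P = 0.00720) and Foxl2 (-3.58, limma adjusted P = 0.0202). Among tumors, Gata2 reached 1 TPM only in MP tumor 5 (1.61 TPM) and MP tumor 9 (2.58 TPM). It too passed the filter through the ovaries, so the count of 4 is a description. Wnt4 and Foxl2 direct ovarian differentiation, and both ended below the WT range in each of the 10 MP tumors, as did 16.4% of all genes, at no more than 53.5 and 76.0 TPM.

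Of 10 paralogs of the members, 3 were tested and 0 passed. Gata6, the paralog of Gata4, had a WT mean of 87.8 ± 6.98 TPM (SD, n = 3) and ran from 0.218 to 176 TPM in MP tumors (log2 fold change -2.66, limma adjusted P = 0.143). Nr2f6 and Nr2f1, paralogs of Nr2f2, had log2 fold changes of -0.41 (limma adjusted P = 0.704) and 0.37 (limma adjusted P = 0.814). The other 7 were under the filter. Of these Gata5 reached 36.6 TPM in the highest MP tumor, with a median of 0, and Pax5, Mslnl, Upk3a, Upk3bl, Emx1 and Lhx2 did not exceed 1.21 TPM in any library.

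Across the 10 MP tumors, the members in the test gave 28 pairs. Upk3b was left out of pooled correlations because its levels fell into separate clusters, a choice made after its values were seen, so 21 pairs were kept. Of these 19 had a positive Pearson r of log2(TPM + 1), and 16 did after median-of-ratios scaling. The tumors share depth and batch differences, so the signs are a description. Muc16 reached 1 TPM in MP tumor 9 alone and had 0 to 18 reads in the other 9, so its pairs are given as a description. By Pearson r, 4 of the 21 pairs passed a permutation test with Benjamini-Hochberg adjustment over the 28 pairs, and by Spearman rho 0 did. Emx2 and Lhx9 had r = 0.78 (permutation P = 0.0102, adjusted 0.0410) and rho = 0.68 (permutation P = 0.0347, adjusted 0.159), and r was 0.80 without MP tumors 5 and 9, the farthest from the median of Emx2. Wt1 and Emx2 had r = 0.77 (permutation P = 0.0102, adjusted 0.0410) and rho = 0.72 (permutation P = 0.0235, adjusted 0.159), and r fell to 0.40 without the same tumors, so that relation rests on them. Muc16 with Emx2 (r = 0.78, permutation P = 0.00118, adjusted 0.0165; rho = 0.75, permutation P = 0.0175, adjusted 0.159) fell to 0.52, and Muc16 with Wt1 (r = 0.68, permutation P = 0.00577, adjusted 0.0323; rho = 0.49, permutation P = 0.155, adjusted 0.332) to 0.58 without them. Batches hold 3 or 4 tumors each, too few for a value within a batch. Gata4 and Nr2f2, both lowest in batch 1, had r = 0.70 (permutation P = 0.0272, adjusted 0.0761; rho = 0.75, permutation P = 0.0173, adjusted 0.159), which was 0.29 after median-of-ratios scaling.

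For members with at least 1 TPM in at least 5 MP tumors, the 2 genes most like each in pattern were found among 10926 genes by Pearson r over the 10 MP tumors, which share library depth and batch with the members. They are given as a description. Nearest to Emx2 were Hoxc5 (r = 0.978) and Dock11 (r = 0.945), and nearest to Wt1 were Cyp2d22 (r = 0.977) and Rsph1 (r = 0.968). Nearest to Upk3b, whose pattern is that of 3 tumors against 7, were Pkhd1l1 (r = 0.995) and Ppp2r2b (r = 0.992). Msln was most like Tia1 (r = 0.919) and Gm32031 (r = 0.867), and Lhx9 most like Stk26 (r = 0.891) and Tm4sf1 (r = 0.875). Gata4 was most like Naglu (r = 0.992) and St3gal5 (r = 0.981), and Nr2f2 most like Rc3h1 and Dnajc13 (r = 0.991 for each).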

How the data were processed

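Bulk polyA RNA-seq of 3 WT ovaries and 10 MP tumors was analysed. The authors deposited 1 table of TPM with a row per gene, its length and coordinates, and a column per library. Their processing notes name FastQC 0.11.5, Trimmomatic 0.36, STAR 2.5.3a, featureCounts 1.6.3 and mm10/GRCm38, whereas the extract protocol names hg19, HTSeq and RPKM. The table holds mouse genes, 96.0% with the start and end of the mouse GENCODE release M21 (GRCm38). Msln is 1 of those that differ. Since TPM has a fixed sum of 1000000 per library, a value falls when other genes take more of the total. Whole reads were recovered from TPM times length (tolerance 0.01).

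Columns were matched to samples by library name, and 0 were left unused. Values were tested as log2(TPM + 1) with limma 3.58.1 (trended, robust) in R 4.3.3, in genes that reached 1 TPM in 3 or more libraries of the comparison, with Benjamini-Hochberg adjustment over all genes and a threshold of 0.05. Pearson and Spearman correlations used 100000 permutations. Pairs of libraries of 1 group differed by more than sampling noise (chi-square per degree of freedom of at least 28.4), so none was counted as a repeat. The members, lists and tests were chosen with earlier results of these data known. Named genes are all members, the 4 genes of each list with the largest absolute moderated statistic, all paralogs, genes overlapping a member, and the 2 genes most like each member. The promoter stretches to print and the exclusion of Upk3b from correlations were chosen after values were seen. Alternatives varied the pseudocount, filter, scaling, limma options, batch, replicate block and single libraries, and 2 were added later: leaving out MP tumors 2 and 10, and median-of-ratios scaling within batch 1. Scripts were tested on simulated data, in which the main test recovered 45 of 94 genes given a log2 change of 2 and 94 of 106 given 4. A member that did not pass the test is therefore not shown to be unchanged. Python 3.11.15, pandas 2.3.3, scipy 1.17.1 and matplotlib 3.10.9 were used.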

Additional observations from a re-analysis of the deposited data

Results flagged for a closer look

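In the 10 MP tumors, 11 of 17 measures had a highest library whose gap to the next, divided by the whole range, exceeded Dixon's 95% value for 10 samples. Chance flags about 1 in 20 independent, normally distributed measures. TPM values are skewed and some of these measures overlap, so that rate does not hold for the count of 11. MP tumor 9 was apart from the others in 5 members: Muc16 at 3.30 TPM (next 0.540), Msln at 43.8 TPM (next 10.6), Upk3b at 335 TPM (next 75.9), Pax8 at 23.2 TPM (next 1.57) and Emx2 at 228 TPM (next 71.4). Emx2os, which overlaps Emx2, was at 25.8 TPM there. MP tumor 5 was apart in Pax2, at 1.90 TPM where the other 9 were at 0. MP tumor 4 was apart in the summed TPM of simple epithelial markers (1.15e+03, next 464). MP tumor 2 was apart in the share of TPM held by its 10 largest genes (55.1%, next 20.6%) and by mitochondrial genes (15.4%, next 5.56%). MP tumor 10 was apart in Trp53, at 187 TPM (next 26.0). On the log2(TPM + 1) scale the gap exceeded Dixon's value for Muc16, Pax8, Pax2 and Trp53, and did not for Msln, Upk3b, Emx2, Emx2os and the simple epithelial markers.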

How the results depend on the processing

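All 8 tested members kept a negative log2 fold change in MP tumors against WT ovaries in each of the 25 alternatives for Muc16 and 26 for each of the others. Msln passed the threshold in 23, Lhx9 in 10 and Nr2f2 in 13. Passes of Muc16 by itself are not listed, since it passed the filter on low values through the ovaries. The counts of lower members against WT ovaries that follow include Muc16, except with the filter at 5 TPM, which it did not pass. Against the 4 members, 433 higher and 2463 lower genes of the main comparison, 2 members were lower with a pseudocount of 0.1 (1752 lower genes), a pseudocount of 0.5 (2199), a filter at 5 TPM (1664) or no filter (3631). Batch 1 alone gave 1043 higher and 9504 lower genes and 8 lower members. Batch as a covariate gave 894 higher, 8534 lower and 7 members. Higher genes rose to 1276 with median-of-ratios scaling (1896 lower, 3 members), 1904 with quantile normalization (2091 lower, 3 members), and 721 after removal of the 10 largest and mitochondrial genes (2571 lower, 3 members). With limma-voom on reads recovered from TPM the counts were 1879 higher, 4042 lower and 6 members. The replicate block, which pairs WT ovaries 1 to 3 with MP tumors 1 to 3 by number, gave 1043 higher and 9620 lower genes and 8 members. Correlations of same-numbered libraries were between -0.099 and 0.001, so they share only a number. Without 1 WT ovary, 65 to 107 genes were higher, 604 to 683 lower and 0 members lower. Without 1 MP tumor, 336 to 637 were higher, 2066 to 3238 lower and 2 to 5 members lower. Leaving out MP tumors 2 and 10 gave 680 higher and 2899 lower genes and 4 members lower. Within batch 1, median-of-ratios scaling gave 4265 higher and 5631 lower genes. Between tumor batches, where 225 genes were higher and 5320 lower, it gave 2401 higher, 1764 lower and 1 member lower, and quantile normalization 1707, 1434 and 0. Without 1 tumor of batch 1, 37 to 351 genes were higher and 2984 to 4855 lower. In that contrast Lhx9 turned from -0.29 to 0.37 with median-of-ratios scaling, 0.60 with quantile normalization, and ran from -1.11 to 0.12 without 1 tumor of batch 1 at a time (0.11 without MP tumor 1). It did not pass the test in any of these. The causes of these changes were not tested.

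Depth limits low values in MP tumors, where 1 read was worth more TPM than in WT ovaries, and in several of them levels of Pax8 and Pax2 like those of the ovaries could not be detected.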
